A study of Homo sapiens with 3 samples.

Results

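A set of 57 human DNA repair genes was followed across 3 Affymetrix arrays of LNCaP cells, an established androgen-responsive prostate cancer line. The genes were chosen by name, with earlier results of these data known, and grouped by pathway. They comprised 15 genes of homologous recombination, 9 of the Fanconi anaemia pathway, 4 of mismatch repair, 8 of base excision repair, 6 of nucleotide excision repair, 5 of end joining and 10 of damage signalling. Of these, 52 had at least 1 probe set annotated to that gene alone, with 133 probe sets in all, out of 18131 genes. BRCA2, RBBP8, FANCA, FANCD2 and ERCC5 had no such probe set and were not analysed here. A gene counted as measured where its probe set was above an intensity of 26.0, the median of all values, on at least 1 array, and lower values were raised to that floor. By this criterion 49 members were measured, 47 of them on all 3 arrays. BRIP1, PMS2 and LIG4 were below the floor on every array. The whole series had 11286 measured genes.

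By their titles, the groups were cells given HOXD-AS1 siRNA 1, cells given HOXD-AS1 siRNA 2 and cells given a control siRNA, each at 75 nM for 48 h and each with 1 array. HOXD-AS1 is a long non-coding RNA transcribed from the HOXD gene cluster, and the series looked for genes that differ from the control with both siRNAs. With 1 array per group no difference has a replicate check and no test was possible, so differences are described by their size. The source labels name the cells as LNCaP-Bic for siRNA 1, LNCaP-AI for siRNA 2 and LNCaP for the control, while the cell line label gives LNCaP for all. A difference between cells of those names and a difference between siRNAs cannot be told apart. Both siRNAs were compared with the same control array. In bulk RNA, fewer cells in a phase of the cell cycle and less transcript per cell cannot be told apart. The labels also disagree on the target of the siRNAs. While the titles name HOXD-AS1, the label for the target positions, 588 for siRNA 1 and 1290 for siRNA 2, places them on the coding sequence of WDR5, which encodes a subunit of histone methyltransferase complexes. Which transcript the siRNAs target was not settled from the labels. The brighter WDR5 probe set read 351 with siRNA 1 and 407 with siRNA 2, against 444.5 in the control (-0.34 and -0.13 on the log2 scale). A second WDR5 probe set read 380 and 374.5, against 419.9 in the control (-0.14 and -0.17). Both stayed within 1.5-fold of the control. The siRNA strands, shown because their target is in doubt, were as follows in the labels.
siRNA 1: gaaagaaggaccaaaguaauu
siRNA 2: gcccuuucugaccugcuuauu
control siRNA: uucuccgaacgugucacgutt

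The arrays were alike in signal. The median intensity was 25.7 with siRNA 1, 26.1 with siRNA 2 and 26.1 in the control. Of the luminal prostate markers, KLK3 read 2329 with siRNA 1 and 1931 with siRNA 2, against 2602 in the control, and all 7 luminal markers analysed were above the floor. KLK2 differed from the control by -0.10 with siRNA 1 and -0.68 with siRNA 2 on the log2 scale, and KRT18 by -0.02 and 0.09. The other luminal markers were higher than in the control, ACP3 by 1.22 and 1.80, TMPRSS2 by 0.53 and 0.30, HOXB13 by 0.50 and 0.15 and KRT8 by 0.27 and 0.40. The part of these marker differences in the repair gene values was not tested. The basal keratin KRT5, the stromal genes COL1A2, DCN and LUM and the leukocyte genes PTPRC, CD3E and CD14 were below the floor on all arrays. KRT14 was above it, at 55.9 and 55.5 with the siRNAs and 47.8 in the control, and so was the fourth stromal gene, COL1A1, near the floor at 26.6 and 33.6 with the siRNAs and 34.0 in the control. The targeted transcript was not analysed here either, and the labels give an inhibition rate of 0.23 for siRNA 1 and 0.25 for siRNA 2 relative to 1 in the control, without saying of which transcript or whether this is the level that remained.

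Homologous recombination mends double-strand breaks by copying the sister chromatid, and its genes are mainly transcribed in S and G2 phase. The Fanconi anaemia proteins act at crosslinks between DNA strands and hand the break on to recombination. Excision repair replaces damaged bases or short stretches, mismatch repair corrects copying errors, and end joining rejoins broken ends throughout the cell cycle. The signalling kinases ATM, ATR, CHEK1 and CHEK2 link damage to cell cycle arrest.

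Recombination and Fanconi genes were mostly below the control array on both siRNA arrays, and further below it on that of siRNA 1. By the probe set used for each, genes of excision, mismatch and end joining repair lay within 1.5-fold of the control, except for PARP2 and ERCC6 with siRNA 1. Among the 49 measured members, 17 lay 1.5-fold or further below the control with siRNA 1 (background over all measured genes 6.16%), and 12 of the 17 belonged to recombination or the Fanconi pathway. At 2-fold there were 6 such members, namely BRCA1, RAD54L, BLM, UBE2T, CHEK1 and DDIAS (background 1.76%). With siRNA 2, the 3 members UBE2T, MDC1 and DDIAS passed 1.5-fold, near the background of 4.67%, and DDIAS alone passed 2-fold (background 0.603%). Of the 19 measured recombination and Fanconi genes, UBE2T alone was 1.5-fold lower with siRNA 2 by the probe set used. Some other probe sets of BRCA1 (-0.62), RAD51AP1 (-0.66 and -0.68) and FANCI (-0.60 and -1.02) also passed 1.5-fold with siRNA 2 on the log2 scale. In the other direction, ERCC6 was the only member 1.5-fold higher with siRNA 1 (background 6.9%), and BARD1 the only one with siRNA 2, where it was also past 2-fold (backgrounds 4.75% and 0.789%). Counted by direction alone, 40 members were below the control with siRNA 1 and 40 with siRNA 2, where 48% and 46.9% of all measured genes were.

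**Figure D1:**
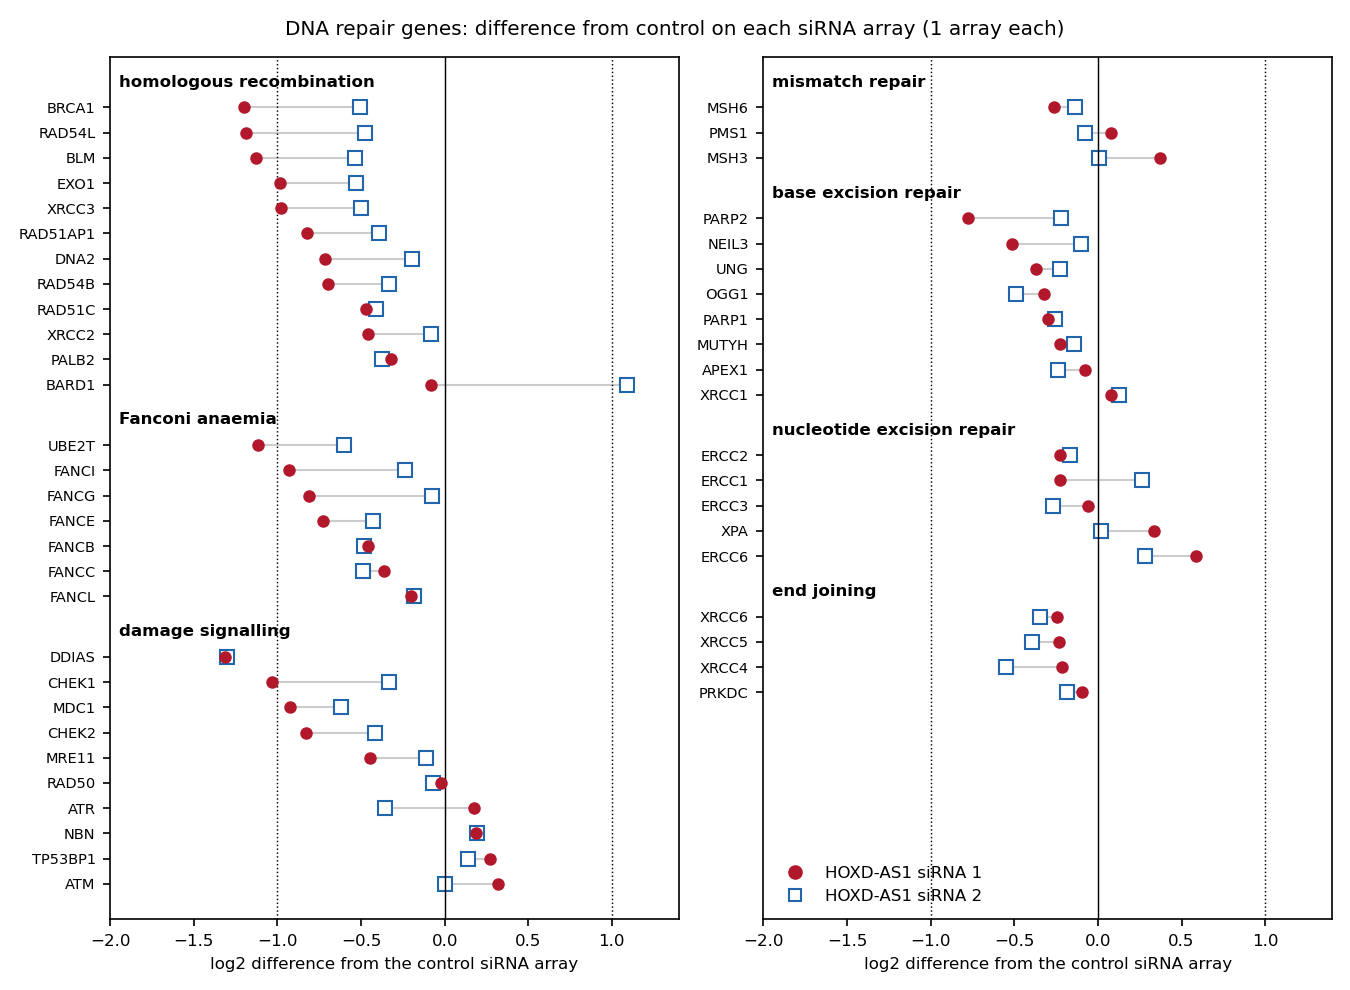
Log2 difference from the control siRNA array for each measured DNA repair gene, by pathway, with siRNA 1 as filled circles and siRNA 2 as open squares, and dotted lines at a 2-fold difference. All recombination and Fanconi genes lie left of 0 except BARD1 with siRNA 2, at 1.09. Excision, mismatch and end joining genes mostly lie nearer to 0, with 15 of 20 left of it with each siRNA. PARP2 with siRNA 1 is the lowest of these at -0.78.

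All 12 measured recombination genes were below the control with siRNA 1, 8 of them by 1.5-fold or more. BRCA1, which encodes a ubiquitin ligase that promotes end resection and loading of the strand-exchange protein, read 52.7 with siRNA 1 and 85.5 with siRNA 2, against 121 in the control. These were log2 differences of -1.20 and -0.50. RAD54L, a motor protein that helps the filament invade the sister chromatid, read 51.5 and 84.4, against 117 in the control, log2 differences of -1.19 and -0.48. BLM, the helicase mutated in Bloom syndrome, read 38.9 and 58.7, against 85.0 in the control (-1.13 and -0.53). In all of these the siRNA 1 value was the lowest of the 3 arrays and the siRNA 2 value lay between it and the control.

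EXO1, a nuclease that lengthens the resected end, read 33.3 with siRNA 1 and 45.7 with siRNA 2, against 66.0 in the control (-0.99 and -0.53), just short of 2-fold with siRNA 1. XRCC3, a paralog of the strand-exchange protein, read 37.6 and 52.4, against 74.0 in the control (-0.98 and -0.50). RAD51AP1, which stimulates joint formation between strands, read 49.2 and 66.5, against 87.1 in the control (-0.83 and -0.39). These genes kept the same order of arrays as BRCA1. RAD54B, a relative of RAD54L, read 168 and 217, against 273 in the control (-0.70 and -0.33). DNA2, a helicase and nuclease, was below the floor with siRNA 1 and read 37.2 with siRNA 2, against 42.6 in the control, so that it was at least 1.64-fold lower with siRNA 1.

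The remaining recombination genes were within 1.5-fold of the control with siRNA 1 by the probe set used. RAD51C, another paralog of the strand-exchange protein, differed by -0.47 and -0.41, XRCC2 by -0.46 and -0.08, and PALB2, which tethers BRCA1 to its partners, by -0.32 and -0.38. Other probe sets of RAD51C gave -0.63 and -0.77 with siRNA 1 and -0.07 and -0.13 with siRNA 2, and that of XRCC2 gave -0.66 and -0.42, so that with siRNA 1 these genes passed 1.5-fold by some probe sets and not by others. BARD1, the obligate partner of BRCA1, was the only gene of the pathway above the control with siRNA 2. It read 317 with siRNA 1 and 711 with siRNA 2, against 335 in the control, differences of -0.08 and 1.09. The siRNA 2 array alone was high, and BARD1 had 1 probe set, so no second reading of it was available. With siRNA 2 the partners of the BRCA1-BARD1 heterodimer thus lay on opposite sides of the control.

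The Fanconi genes divided into those lower with siRNA 1 and those alike with both siRNAs. UBE2T, the ubiquitin-conjugating enzyme that modifies the pathway's central complex, read 1051 with siRNA 1 and 1501 with siRNA 2, against 2282 in the control, differences of -1.12 and -0.60. FANCI, a subunit of the complex that UBE2T modifies, read 234 and 377, against 444 in the control (-0.93 and -0.24). FANCG, part of the core ubiquitin ligase, read 61.6 and 103, against 108 in the control, so it was lower with siRNA 1 (-0.81) and near the control with siRNA 2 (-0.08). FANCE, another core subunit, read 53.1 and 65.3, against 87.8 in the control (-0.73 and -0.43). FANCB and FANCC differed about equally with both siRNAs, FANCB by -0.46 and -0.48 and FANCC by -0.36 and -0.49. FANCL, the catalytic ligase subunit, differed least with siRNA 1 (-0.20 and -0.18). All 7 measured Fanconi genes were below the control with each siRNA.

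**Figure D2:**
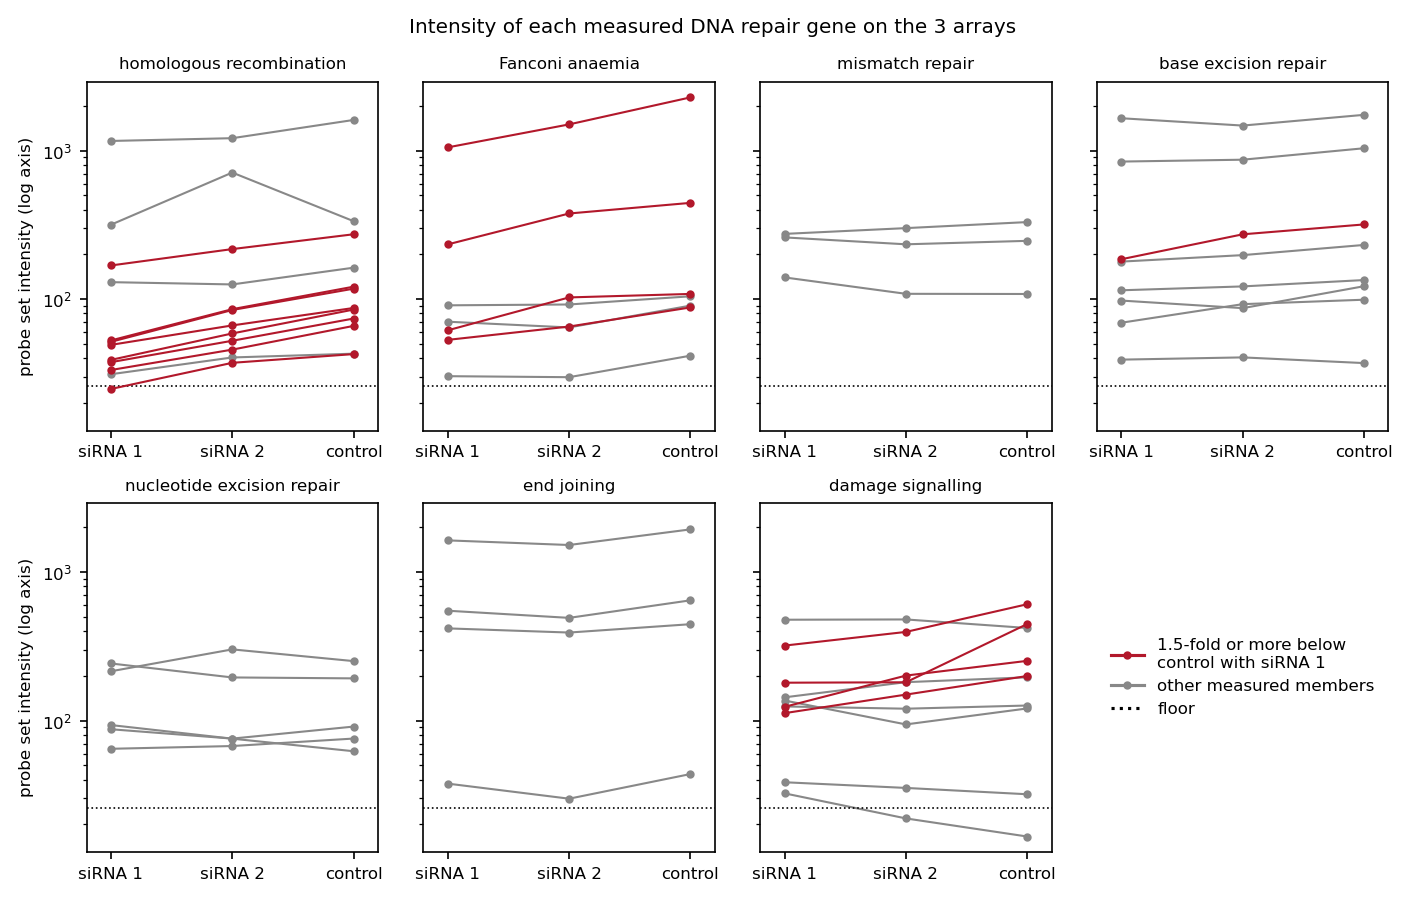
Probe set intensity on a log axis for each measured DNA repair gene on the siRNA 1, siRNA 2 and control arrays, 1 panel per pathway and 1 line per gene, with genes 1.5-fold or more below the control with siRNA 1 in red. Most lines climb towards the control in the recombination and Fanconi panels, but BARD1 peaks with siRNA 2, and PALB2, FANCB and FANCC are lowest with siRNA 2. Several red recombination genes lie between 24.8 and 52.7 with siRNA 1, close to the dotted floor at 26.0.

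Of 10 measured signalling genes, CHEK1, CHEK2, MDC1 and DDIAS were 1.5-fold or more below the control with siRNA 1, and the other 6 were nearer to it. CHEK1, the kinase that halts S and G2 phase downstream of ATR, read 124 with siRNA 1 and 201 with siRNA 2, against 253 in the control (-1.03 and -0.33). CHEK2, the kinase downstream of ATM, read 112 and 149.6, against 199.6 in the control (-0.83 and -0.42). MDC1, a scaffold that binds phosphorylated H2AX beside breaks, read 319.9 and 395, against 608 in the control (-0.93 and -0.62). For these genes both siRNA arrays were below the control and siRNA 1 was the lower.

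DDIAS, whose product is linked to survival after DNA damage, was the member with the largest difference from the control with either siRNA. It read 179.9 with siRNA 1 and 181 with siRNA 2, against 447 in the control, 2.49-fold and 2.47-fold lower. Unlike CHEK1, BRCA1 or UBE2T, its siRNA arrays were level with each other, with a difference of -0.01 between them. Its other probe set was below the floor on all arrays.

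The break sensor MRE11, a nuclease, read 143 and 181, against 196 in the control (-0.45 and -0.11), but its other probe sets above the floor gave -0.10 to 0.27 with siRNA 1 and -0.62 to -0.25 with siRNA 2. Its partners RAD50 (-0.02 and -0.07) and NBN (0.19 and 0.19) were near the control. The other RAD50 probe sets differed by 0.20 and 0.28 with siRNA 1 and by -0.51 and -0.54 with siRNA 2, so that the gene's level with siRNA 2 depended on the probe set. The kinase ATR read 136 with siRNA 1 and 94.2 with siRNA 2, against 121 in the control (0.18 and -0.36). TP53BP1, which favours end joining over resection, differed by 0.27 and 0.14. ATM was above the floor with siRNA 1 alone, at 32.4, where it read 21.9 with siRNA 2 and 16.6 in the control, so its passing the filter rests on that array.

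By the probe set used, base excision repair genes other than PARP2 lay within 1.5-fold of the control with either siRNA. PARP2, a poly(ADP-ribose) polymerase that senses strand breaks, read 185 with siRNA 1 and 273 with siRNA 2, against 318 in the control (-0.78 and -0.22), and its 2 other probe sets gave -0.77 and -0.66 with siRNA 1. Its relative PARP1 differed by -0.30 and -0.26, although its other probe sets ranged from -0.21 to 0.19 and from -0.28 to 0.10. Among the glycosylases, which cut out damaged bases, NEIL3 differed by -0.51 and -0.10, UNG by -0.37 and -0.23, OGG1 by -0.32 and -0.49 and MUTYH by -0.23 and -0.14. Another OGG1 probe set read 41.2 and 40.8, against 62.6 in the control, past 1.5-fold with both siRNAs (-0.60 and -0.62). The abasic site nuclease gene APEX1 (-0.08 and -0.24) and the scaffold gene XRCC1 (0.08 and 0.13) were the closest to the control with siRNA 1.

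Nucleotide excision repair genes lay on both sides of the control. ERCC6, which starts repair at stalled RNA polymerase, read 93.3 with siRNA 1 and 75.5 with siRNA 2, against 62.2 in the control, differences of 0.59 (1.5-fold) and 0.28. XPA, the damage verification factor, read 242 and 195, against 192 in the control (0.33 and 0.02). The helicase genes ERCC2 (-0.23 and -0.17) and ERCC3 (-0.06 and -0.27), both of the TFIIH complex, were slightly lower. ERCC1, part of the nuclease that cuts before the lesion, read 215 and 302, against 251 in the control, and so lay on opposite sides of the control with the siRNAs (-0.23 and 0.26). Its other probe set gave 0.06 and 0.40.

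By the probe set used, all 4 measured end joining genes were below the control by small amounts, and by more with siRNA 2 than with siRNA 1. XRCC6 and XRCC5, the Ku subunits that cap broken ends, differed by -0.25 and -0.35 and by -0.23 and -0.39. XRCC4, the partner of the end joining ligase, read 37.6 and 29.8, against 43.6 in the control (-0.21 and -0.55). The kinase gene PRKDC differed by -0.09 and -0.19, and its other probe sets by -0.10 and 0.23 with siRNA 1 and by -0.42 and 0.13 with siRNA 2. The other XRCC5 probe set gave 0.02 and -0.55, so that XRCC5 and PRKDC lay on either side of the control depending on the probe set. Of mismatch repair, MSH6, which recognises single mispairs, differed by -0.26 and -0.14. MSH3, which recognises longer loops, read 139.9 with siRNA 1 and 108 with siRNA 2, against 108 in the control (0.37 and 0.00). PMS1 differed by 0.08 and -0.08 by the probe set used. Its other probe sets above the floor on at least 1 array ranged from -0.34 to 0.06 with siRNA 1. With siRNA 2 they ranged from -0.71 to -0.12, the lowest past 1.5-fold.

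Set side by side, the pathways differed most with siRNA 1. The median log2 difference with siRNA 1 was -0.77 over 12 recombination genes and -0.73 over 7 Fanconi genes. It was -0.31 over 8 base excision, -0.22 over 4 end joining, -0.06 over 5 nucleotide excision and 0.08 over 3 mismatch repair genes, and -0.23 over 10 signalling genes. With siRNA 2 the medians were -0.40 for recombination, -0.43 for Fanconi, -0.22 for base excision, -0.37 for end joining, 0.02 for nucleotide excision, -0.08 for mismatch repair and -0.22 for signalling. The median of all measured genes was 0.00 with siRNA 1 and 0.01 with siRNA 2. The order of the pathways depended on the processing. With the floor at the 75th percentile of intensity, the recombination medians over 5 genes were -0.32 with siRNA 1 and -0.33 with siRNA 2, and the signalling median over 8 genes was -0.59 with siRNA 1. With the mean of all probe sets, the Fanconi medians were -0.46 with siRNA 1 and -0.16 with siRNA 2, and those of end joining and mismatch repair with siRNA 1 were -0.079 and -0.065. Pooled, the 19 recombination and Fanconi genes had medians of -0.73 with siRNA 1 and -0.41 with siRNA 2, and the 20 excision, mismatch and end joining genes had -0.23 and -0.18. At 1.5-fold with siRNA 1, 12 of the 19 were lower, against 1 of the 20 (PARP2), beside 6.16% of all measured genes. The count among the 20 was near that background. Each gene was counted in a single pathway, and the medians under other placements were not worked out. These are descriptions of 3 arrays, and members of a pathway are not replicates of a condition.

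**Figure D3:**
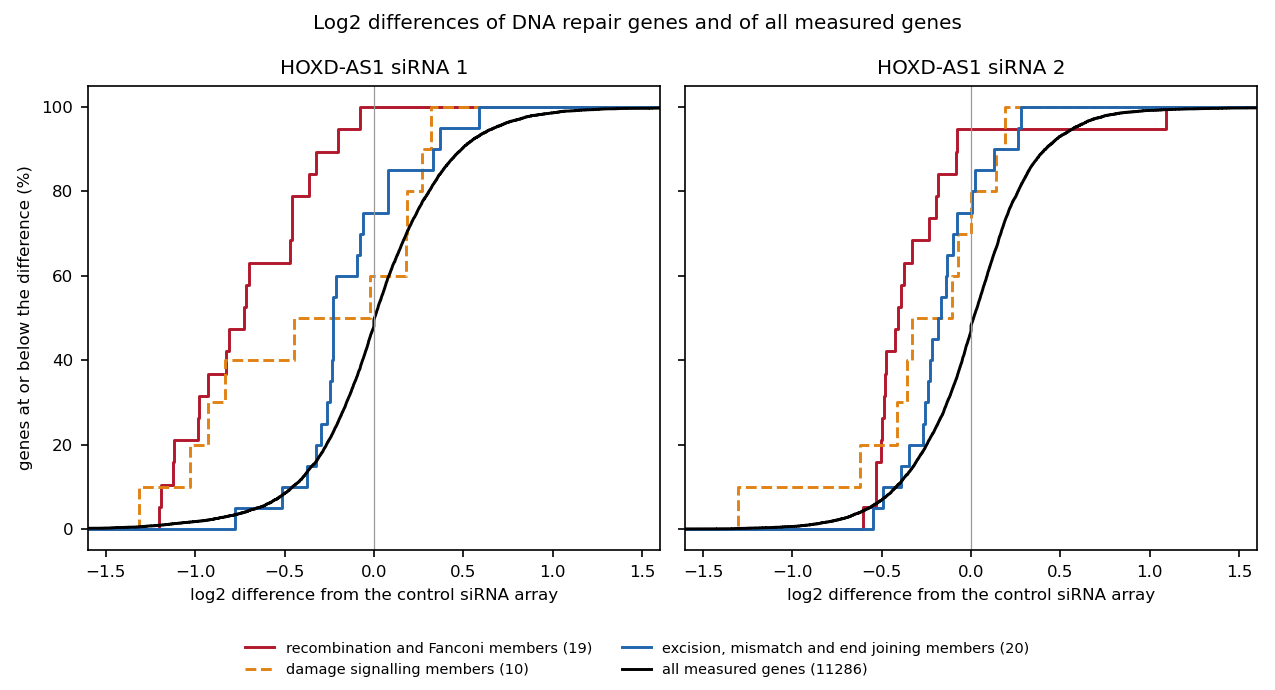
Cumulative share of genes (vertical axis, percent) at or below each log2 difference from the control array, for recombination and Fanconi members (19), signalling members (10), excision, mismatch and end joining members (20) and all measured genes (11286), with siRNA 1 on the left and siRNA 2 on the right. The recombination and Fanconi curve lies furthest left with siRNA 1 (median -0.73), while with siRNA 2 the member curves lie closer together (medians -0.41, -0.22 and -0.18).

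The siRNA arrays were also compared with each other, a comparison that does not use the control array. BRCA1, BARD1, RAD54L, BLM, FANCG, FANCI and CHEK1 were at least 1.5-fold lower with siRNA 1 than with siRNA 2, 7 members against a background of 4.87%, and 0 members were 1.5-fold higher, where 6.52% of all measured genes were. Of the 19 recombination and Fanconi genes, 16 were lower with siRNA 1 than with siRNA 2, and of the 20 excision, mismatch and end joining genes 9 were, beside 53.1% of all measured genes. The median difference between the siRNA arrays was -0.46 for recombination and Fanconi genes and 0.10 for excision, mismatch and end joining genes, with -0.02 over all measured genes. BARD1 owed its place to its high siRNA 2 value (-1.17 between the siRNAs), whereas FANCG owed it to a siRNA 2 value near the control (-0.74). End joining was the pathway in which every measured gene was higher with siRNA 1 than with siRNA 2, by 0.09 to 0.34.

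The promoters of the 6 members that were 2-fold lower with siRNA 1, together with MSH6 as a member near the control, are shown because these genes differ together on the siRNA 1 array and genes of S phase commonly carry E2F sites there. Each line gives the 150 bases before the annotated start, 5′ to 3′ on the gene's own strand, from RefSeq on GRCh38.p14. Capitals mark the E2F core (TTCCCGC or TTCGCGC or TTGCCGC or TTGGCGC), the CHR (TTTGAA or TTCGAA) and the CCAAT box (CCAAT itself), each searched on both strands. For genes with several annotated starts the window with most E2F words is given.
RAD54L, chr1:46247538-46247687, plus strand: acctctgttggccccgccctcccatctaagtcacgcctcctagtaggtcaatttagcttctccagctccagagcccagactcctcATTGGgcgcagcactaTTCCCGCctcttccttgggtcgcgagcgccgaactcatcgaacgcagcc
BRCA1, chr17:43125365-43125514, minus strand: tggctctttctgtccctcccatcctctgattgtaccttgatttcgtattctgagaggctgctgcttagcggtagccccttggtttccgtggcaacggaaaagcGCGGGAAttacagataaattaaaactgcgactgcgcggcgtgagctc
BLM, chr15:90717196-90717345, plus strand: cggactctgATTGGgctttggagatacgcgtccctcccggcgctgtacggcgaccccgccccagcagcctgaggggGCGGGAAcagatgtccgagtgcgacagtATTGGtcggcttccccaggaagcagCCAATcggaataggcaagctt
UBE2T, chr1:202341937-202342086, minus strand: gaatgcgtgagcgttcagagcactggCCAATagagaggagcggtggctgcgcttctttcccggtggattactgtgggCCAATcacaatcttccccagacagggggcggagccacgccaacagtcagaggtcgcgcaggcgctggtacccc
CHEK1, chr11:125626074-125626223, plus strand: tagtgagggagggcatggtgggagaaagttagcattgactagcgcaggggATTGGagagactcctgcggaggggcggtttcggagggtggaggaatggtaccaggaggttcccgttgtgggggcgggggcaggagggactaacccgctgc
DDIAS, chr11:82901586-82901735, plus strand: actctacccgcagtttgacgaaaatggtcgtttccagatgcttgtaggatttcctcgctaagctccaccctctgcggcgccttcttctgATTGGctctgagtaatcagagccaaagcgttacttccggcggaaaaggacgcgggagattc
MSH6, chr2:47783803-47783952, plus strand: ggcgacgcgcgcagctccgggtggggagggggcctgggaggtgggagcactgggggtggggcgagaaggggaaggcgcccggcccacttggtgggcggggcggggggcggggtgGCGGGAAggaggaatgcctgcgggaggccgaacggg

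RAD54L, BRCA1 and BLM held an E2F word within these bases, with its first base 49, 47 and 74 bases before the start, and UBE2T, CHEK1 and DDIAS held CCAAT words and no E2F word. MSH6, which was close to the control, also held one. Over the longer window from 250 bases before to 50 after the start, an E2F word was found in 15 of the 21 recombination and Fanconi genes with a window (71.4%) and in 13 of 21 excision, mismatch and end joining genes (61.9%). It was found in 1 of 9 signalling genes, MDC1. All 4 mismatch repair genes held it. For comparison it was present in 25% of the 9323 measured genes with a window and in 15.3% of all genes with a window. Among members at least 1.5-fold lower with siRNA 1 it was present in 10 of 14, and among the other measured members in 15 of 29 (51.7%). The CCAAT box was present in 10 of the 14, in 16 of the other 29 (55.2%) and in 43.7% of measured genes. The CHR was present in 3 of the 14 (21.4%), in 8 of the other 29 (27.6%) and in 15.2% of measured genes. These matches describe the letters in the windows and are not binding sites.

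Where a gene had more than 1 probe set, these gave a second reading of the same array, though not of the experiment. Of the 17 members at least 1.5-fold lower with siRNA 1, 6 had other probe sets above the floor on at least 1 array. Of these probe sets 13 were above it on all 3 arrays, and all 13 were below the control with siRNA 1, 11 of them by at least 1.5-fold. A further 3 were above the floor in the control alone, which fixes their direction. The 5 other CHEK1 probe sets ranged from -1.28 to -0.71 with siRNA 1 and from -0.83 to -0.36 with siRNA 2. The other FANCI probe sets differed more than the one used, by -1.15 and -1.80 with siRNA 1 and -0.60 and -1.02 with siRNA 2. For BRCA1 another probe set gave -1.18 and -0.62, the first from a siRNA 1 value below the floor and raised to it. A further 2 BRCA1 probe sets were above the floor in the control alone. MDC1 had probe sets at -0.77 and -0.15 with siRNA 1. RAD54L, BLM, EXO1, XRCC3, RAD54B, FANCG and UBE2T had 1 probe set each. Over all 49 other probe sets of members, the median gap to the probe set used was 0.206 with siRNA 1 and 0.214 with siRNA 2, beside 0.150 and 0.155 over all measured genes. The 90th percentile of the gap for members was 0.700 with siRNA 1 and 0.473 with siRNA 2. Differences such as those of FANCL or NBN are no larger than the median gap, and some past 1.5-fold with siRNA 1 lie within the 90th percentile.

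**Figure D4:**
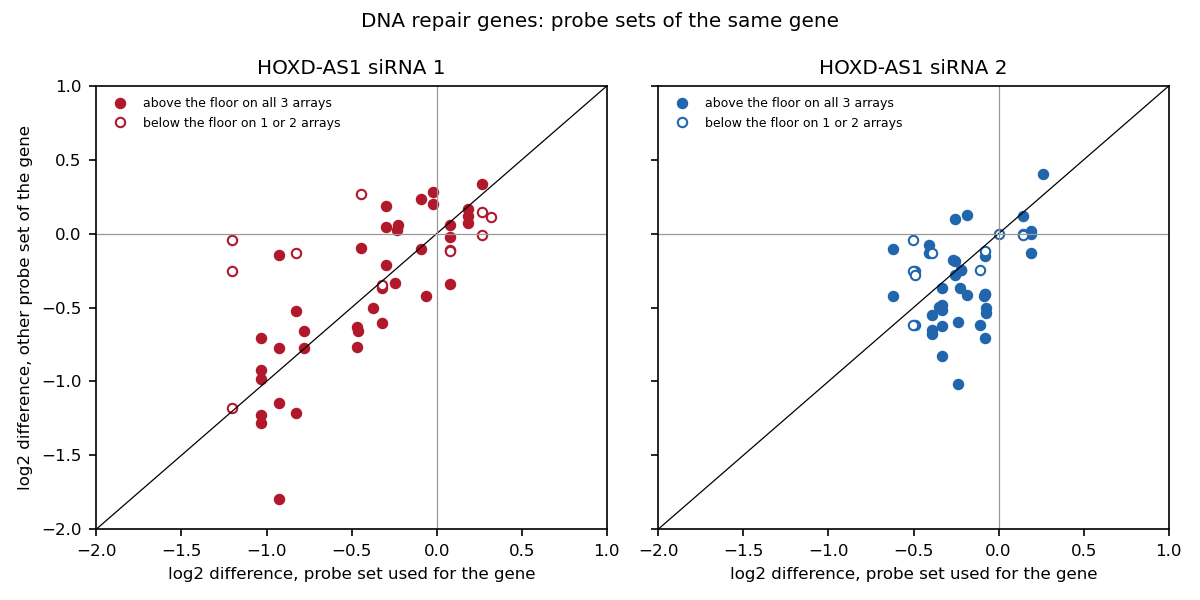
Log2 difference from the control of each other probe set (vertical axis) against that of the probe set used for the gene (horizontal axis), for DNA repair genes with several probe sets, with siRNA 1 on the left and siRNA 2 on the right. Open symbols were below the floor on 1 or 2 arrays, and the diagonal marks equal values. In the left panel, the 13 filled points of genes at least 1.5-fold lower with siRNA 1 lie below 0, the lowest being FANCI at -1.80.

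A further list of 102 repair genes outside the 57, of which 93 were measured, held a smaller share of lower genes. With siRNA 1, 23 of the 93 were at least 1.5-fold lower and 6 were 2-fold lower, beside backgrounds of 6.16% and 1.76% of all measured genes. With siRNA 2 the counts were 5 and 0, near the backgrounds of 4.67% and 0.603%. The 6 were MND1 (-1.19 with siRNA 1 and -0.73 with siRNA 2), a strand-exchange cofactor, RMI2 (-1.22 and -0.50), a partner of BLM, and FEN1 (-1.08 and -0.44), PCNA (-1.16 and -0.25), RFC3 (-1.13 and -0.66) and RFC4 (-1.01 and -0.70), which also act at the replication fork. TDP1, which removes trapped topoisomerase from DNA ends, was 2-fold higher with siRNA 2 (1.02) and near the control with siRNA 1 (0.06), as BARD1 was. The 32 further recombination and Fanconi genes had medians of -0.13 and -0.06, nearer to the control than those of the 19 members. The 34 further excision and end joining genes had medians of -0.04 and -0.11. The 8 further mismatch repair genes, namely PCNA, LIG1, MLH3 and the RFC clamp loader genes, had medians of -0.715 and -0.336, and 4 of them were at least 1.5-fold lower with siRNA 1, unlike the 3 mismatch members. The 19 further signalling genes had medians of -0.23 and -0.16.

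For scale, 18 measured genes of the replication helicase and of replication initiation had medians of -1.15 with siRNA 1 and -0.43 with siRNA 2, all of them at least 1.5-fold lower with siRNA 1 (-1.75 to -0.64). The recombination and Fanconi medians beside them were -0.73 and -0.41. The replication genes were low on the same arrays, and the part of cell cycle distribution in the repair gene values was not tested.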

How the data were processed

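RNA from 3 cultures, 1 per siRNA and all LNCaP by the cell line label, was labelled and hybridised to Affymetrix arrays. The source labels give 3 different names for these cells. The deposited values were linear probe set intensities. The deposited intensities came from GCOS 1.4, per the submitters' processing notes, and background correction and normalization are not given in the sources used here. Sorted log2 values of any 2 arrays differed by at most 0.098, so the values were used as deposited. Had an earlier step equalised the 3 distributions, a shift of most transcripts would not be seen. Gene names came from the platform annotation, where 44988 of 49388 probe sets had 1 gene and 44961 of these matched RefSeq by Entrez identifier. Values below the floor (the median, 26.0) were raised to it and log2 was taken. A gene was represented by its probe set with the highest mean. Differences are siRNA minus control. Thresholds were 2-fold and 1.5-fold. The number of arrays limits the precision, and no test was run. The calculation was tested on simulated data. Python 3.11.15, numpy 2.4.6 and pandas 2.3.3 were used. Members, lists, promoter motifs and alternatives were chosen with earlier results of these data known. Values on all arrays are given for members at least 1.5-fold from the control with either siRNA and for pathway extremes, and further repair genes are named where 2-fold from it. Promoters were printed for the members 2-fold lower with siRNA 1 and for MSH6, chosen after its values were seen. Alternatives were another floor, other probe set rules and 2 rescalings.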

Additional observations from a re-analysis of the deposited data

Results flagged for a closer look

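A few members lay on opposite sides of the control with the siRNAs, and with 1 array each the difference was not tested. BARD1 was level with the control with siRNA 1 and higher with siRNA 2, a log2 difference of -1.17 between the siRNAs (siRNA 1 minus siRNA 2). ATR was slightly higher with siRNA 1 and lower with siRNA 2 (0.535 between them). ERCC1 was slightly lower with siRNA 1 and higher with siRNA 2 (-0.489). By the probe set used, PMS1 differed by 0.155 between the siRNAs, less than the median gap of 0.206 between probe sets of a member with siRNA 1. Its other probe sets above the floor differed by -0.71 to -0.12 with siRNA 2. The mismatch repair median over 3 genes was 0.077 with siRNA 1 and -0.077 with siRNA 2, but -0.065 and -0.068 with the mean of all probe sets and 0.011 with siRNA 1 without a floor, and the nucleotide excision repair median over 5 genes was -0.060 with siRNA 1 and 0.021 with siRNA 2.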

How the results depend on the processing

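No paired analysis was possible because each group held 1 array. The counts and pooled medians were recomputed under 7 alternatives, and 45 of 56 values stayed on the same side of 0 and within 1.5 times of the reported value. With the floor at the 75th percentile of intensity, which left 29 members, 3 members were 2-fold and 8 were 1.5-fold lower with siRNA 1, and the recombination and Fanconi median over 7 genes was -0.47, while the nucleotide excision median with siRNA 1 was 0.053, on the other side of 0. With the mean of all probe sets, 0 members were 2-fold lower with siRNA 2, the excision, mismatch and end joining median with siRNA 1 was -0.081 and the signalling median with siRNA 1 turned to 0.015. With only plain probe sets, which left 8 members, 2 were 2-fold and 3 were 1.5-fold lower with siRNA 1, 0 were 2-fold and 1 was 1.5-fold lower with siRNA 2, and the excision, mismatch and end joining medians over 3 genes were 0.024, on the other side of 0, with siRNA 1 and -0.099 with siRNA 2, the end joining median over 1 gene also being 0.024 with siRNA 1. The mean took in probe sets below the floor on every array, such as 1 of DDIAS, whose difference is fixed at 0. Apart from this and the fewer genes left, the cause was not tested. No share over all measured genes is given for these alternatives, so their counts have no background beside them. Quantile normalization, centring and a lower or no floor moved none of the counts or pooled medians by over 1.5 times. Sorted log2 values of the arrays already differed by at most 0.098. In addition, 47 of the 49 measured members were above the floor on all arrays. These settings could therefore change little, and their values are among the 45. Recombination genes near the floor, such as DNA2, XRCC2 and EXO1, have little signal over background.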

Other observations

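The subunits of replication protein A, which coats single-stranded DNA during recombination and replication, differed between the siRNAs. RPA2 read 445 with siRNA 1 and 845 with siRNA 2, against 794 in the control, log2 differences of -0.83 and 0.09. RPA3 read 731 and 1115, against 1289 in the control (-0.82 and -0.21), and RPA1 differed by -0.38 and 0.09. H2AX, the histone variant phosphorylated beside breaks and bound by MDC1, read 2520.0 with siRNA 1 and 3987 with siRNA 2, against 4909 in the control (-0.96 and -0.30). The polymerase of microhomology end joining, POLQ, differed by -0.90 and -0.25. With siRNA 1 it was lower than the Ku and XRCC4 genes of classical end joining (-0.25 to -0.21 by the probe set used). With siRNA 2 POLQ was nearer to the control than those genes were (-0.55 to -0.35). The damage recognition gene XPC was higher with both siRNAs (0.30 and 0.62). These genes were chosen after their values were seen.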
